A study of Columba livia with 10 samples.

Results

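Racing homers are domestic pigeons bred and trained to fly back to their loft, and here RNA of their cerebellum was sequenced after a race or after a day of rest. Within the race group, birds were divided by the level of FKBP5, a gene that glucocorticoid hormones switch on in mammals. The 3 FKBP5-high birds (race 2, race 3 and race 4) and the 2 FKBP5-low birds (race 1 and race 5) had all competed over 300 km and were killed on their return. The 5 control birds were of the same age and had stayed in the loft that day. Race and control birds shared the loft, a competition feeding schedule and training by the widowhood method, and all were sedated before cervical dislocation. Each library came from 1 bird, so the birds that flew are 5 of the 10 libraries in the series. The 2 sides were chosen by FKBP5 itself, at a level of 200 CPM, which are counts scaled to a common library total, after TMM scaling, so they are not groups that the study set up. A comparison between them asks which other genes varied with FKBP5 over 5 libraries, and FKBP5 was left out of every test.

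FKBP5 encodes an immunophilin that sits with Hsp90 on steroid hormone receptors and lowers the hormone binding of the glucocorticoid receptor. In mammals the activated receptor raises its transcription, which closes a short negative feedback loop and makes the transcript a widely used reading of glucocorticoid action in brain. The avian hormone of this pathway is corticosterone, and no hormone level is given in the labels.

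The link between tables and birds is uncertain, and all that follows rests on it. The count tables carry library numbers in their names, and 9 of the 10 disagree with the numbers in the titles of their samples. The sides used here rely on the sample under which a table was filed. By the titles, race 1, race 2 and race 3 would be control birds, race 4 and race 5 would stay race birds, and control 3, control 4 and control 5 would be race birds. Under that link race 4 alone would reach 200 CPM among 5 race birds.

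FKBP5 stood at 266, 352 and 452 CPM in race 2, race 3 and race 4, and at 90.6 and 64.8 CPM in race 1 and race 5. The values next to the threshold are 266 CPM in race 2 above it and 90.6 CPM in race 1 below it, so no race library lies close to it. The control libraries held 36.8, 57.4, 87.0, 117 and 119 CPM, a range that takes in both FKBP5-low birds and none of the FKBP5-high birds. These values selected the members and are given as a description.

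The 5 race libraries resembled each other closely. Spearman correlations across genes, which are not independent replicates, were 0.972 to 0.984 for the 4 pairs on the same side and 0.969 to 0.981 for the 6 pairs on opposite sides. Gene counts summed to between 19458832 and 21227493 in the FKBP5-high libraries and to 18815027 and 17953704 in race 1 and race 5, so depth differed without overlap between the sides, and its part in the results was not tested. Reads outside annotated features made up 19.7% to 20.3% of counts in the FKBP5-high libraries and 19.4% and 20.8% in race 1 and race 5. The cerebellar genes GABRA6, PAX6, ZIC1, BARHL1, CBLN1, CALB1 and CA8 were present in every race library (CA8 at 19.5 CPM or more), whereas the Purkinje cell gene PCP2 was at or below 0.101 CPM. The forebrain genes TBR1 and LHX6 were at or below 2.61 CPM in race libraries. From 24 to 32 genes of the W chromosome, the female sex chromosome of birds, reached 1 CPM in race libraries. The number was 29 in control 1 and in control 2 and 92 to 94 in control 3, control 4 and control 5. In bulk tissue, fewer cells of a type and less RNA per cell cannot be told apart.

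No gene passed in the comparison of the sides. Of 14520 genes tested by edgeR's quasi-likelihood test, 0 (0%) had a Benjamini-Hochberg adjusted p under 0.05, and the lowest adjusted p was 0.122. Before adjustment, 695 genes (4.79%) stood higher and 767 (5.28%) lower in FKBP5-high birds at p under 0.05. All 3 FKBP5-high libraries lay above both FKBP5-low libraries for 2028 genes (14%) and below both for 2221 (15.3%). Fold changes centred on zero, with a median of 0.00 on the log2 scale and 50.2% of genes positive. A single gene tested by exact permutation of 3 against 2 libraries could reach no p below 0.1. Other tools gave other counts: with limma voom 0 genes passed as well, whereas DESeq2 passed 167 higher and 153 lower genes, 320 in all (2.2%).

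Used as a scale in place of 2 sides, FKBP5 had 4 partners among race birds. A slope here is the log2 change of a gene for each doubling of FKBP5 across the 5 race libraries. By edgeR's quasi-likelihood test 4 of 14520 genes (0.0275%) passed: TULP1, FOS and PDE2A rose with FKBP5, and LOC102086143, an uncharacterised gene, fell with it. At an unadjusted p under 0.05 there were 1696. Without race 1, race 3 or race 5, 0 genes passed, without race 2 TULP1 passed alone, and without race 4 4 genes passed, TULP1 and FOS among them.

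TULP1, a tubby-like gene known for its part in photoreceptors, followed FKBP5 almost in proportion. It held 85.0, 117 and 162 CPM in race 2, race 3 and race 4, and 31.7 and 22.7 CPM in race 1 and race 5. The order of the 5 libraries is the same as for FKBP5, with no overlap between the sides. TULP1 averaged 121 ± 38.6 CPM in FKBP5-high birds (SD, n = 3) and 27.2 ± 6.35 CPM in FKBP5-low birds (SD, n = 2). Its slope was 0.99 ± 0.06 (SE, adjusted p = 0.00502), and between 0.95 and 0.99 under each other scaling, filter, tool and left-out library. In control libraries, which played no part in choosing the sides, the slope was 0.92 ± 0.27 (SE) and did not pass (adjusted p = 1). The race slope exceeded the control slope by 0.06 (adjusted p = 1).

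TULP1 is also the gene next to FKBP5 in the RefSeq annotation of assembly bColLiv1.pat.W.v2. For every 100 counts of FKBP5 there were 31.9, 33.2 and 35.8 counts of TULP1 in race 2, race 3 and race 4, 35.0 and 35.1 in race 1 and race 5, and 35.6 to 43.2 in control libraries. The ratio thus stayed within a narrow band while FKBP5 counts ran from 819 to 9539. Over all 10 libraries TULP1 was the gene most like FKBP5 of 12355 compared (Pearson r = 0.996, Spearman rho = 0.988), and r was 0.991 without race 3 and race 4. The strand setting of the counting is not given in the sources used here, and whether reads of one gene were counted for the other was not tested.

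**Figure D1:**
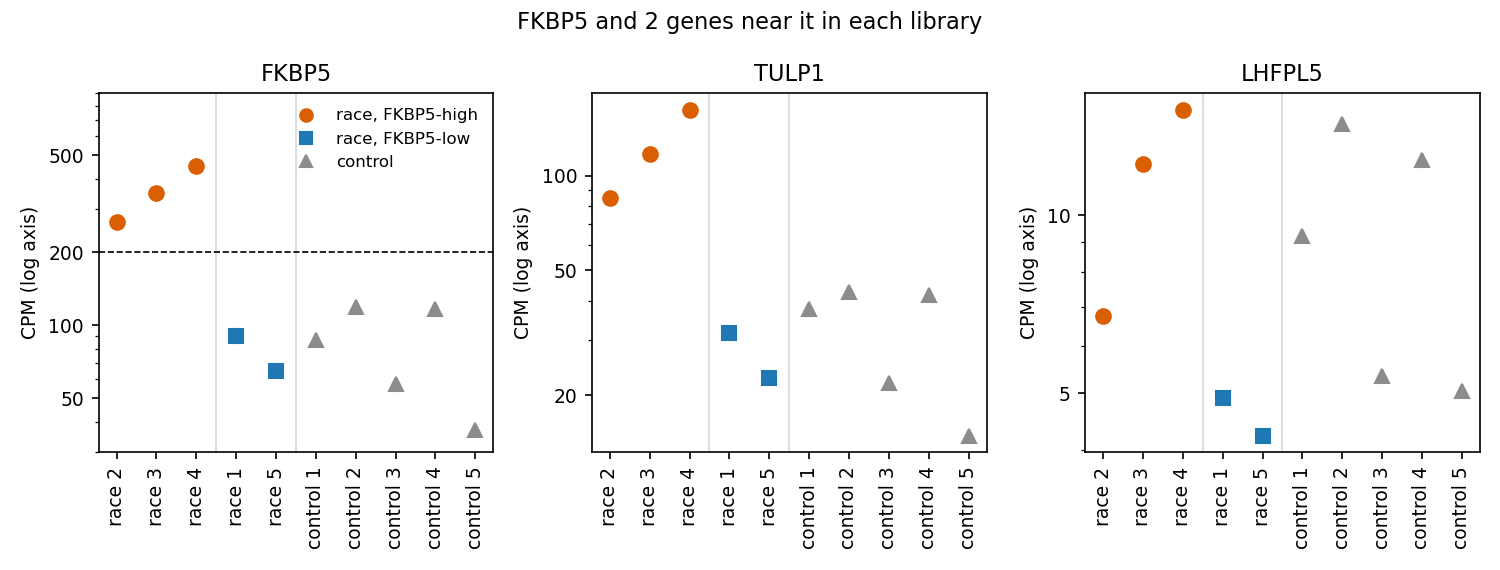
FKBP5, TULP1 and LHFPL5 in CPM on log axes, 1 point per library, with FKBP5-high race birds (orange circles) left of FKBP5-low race birds (blue squares) and controls (grey triangles); the dashed line is the threshold of 200 CPM. TULP1 repeats the order of FKBP5 within the race birds, with 85.0 to 162 CPM in FKBP5-high and 22.7 and 31.7 CPM in FKBP5-low birds, and LHFPL5 does so with 6.74 to 15.1 CPM and 4.23 and 4.90 CPM.

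Other genes around FKBP5 gave a mixed picture. Of the 12 genes nearest to it, 6 on either side, TULP1 was the only one to pass in the race slope, and the sides of LOC110355493, TEAD3 and MAPK13 overlapped. LHFPL5, a subunit of the hair cell mechanotransduction complex in mammals, held 6.74, 12.2 and 15.1 CPM in race 2, race 3 and race 4 and 4.90 and 4.23 CPM in race 1 and race 5. Its race slope was 0.62 ± 0.13 (SE, adjusted p = 0.185) and its control slope 0.90 ± 0.33. MICAL1, which takes actin filaments apart, held 14.8, 17.8 and 31.5 CPM on the FKBP5-high side and 4.6 and 9.59 CPM on the FKBP5-low side. SLC26A8, an anion transporter of sperm, lay the other way at 48.7, 49.4 and 41.0 CPM against 69.5 and 62.9 CPM. The sides of SRPK1, MAPK14, SMPD2 and FANCE overlapped, with fold changes between -0.02 and 0.07 on the log2 scale, and CLPS was at or below 0.0948 CPM in every race library.

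After TULP1, the 9 genes most like FKBP5 over the 10 libraries were LOC102091810, ARL9, HPSE2, KCNE2, LOC102092916, LOC102084642, LOC110358463, RGS9 and LOC135577389. Their Pearson correlations lay between 0.871 and 0.941 over libraries that differ in group and scaling. The lowest of them without race 3 and race 4, the libraries farthest in FKBP5, was 0.704 for RGS9. RGS9, a regulator of G protein signalling, held 102, 233 and 202 CPM in race 2, race 3 and race 4 and 90.5 and 72.6 CPM in race 1 and race 5. KCNE2, an accessory subunit of potassium channels, held 13.3, 19.0 and 40.6 CPM against 8.70 and 7.88 CPM. Neither passed by edgeR's quasi-likelihood test in the race birds, with slopes of 0.54 ± 0.12 and 0.73 ± 0.14 (SE). DESeq2 called both as higher in the split, beside 2.2% of all genes tested. Both were picked by their correlation with FKBP5 over libraries that include the race birds, so these calls are no separate support.

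FOS, the immediate-early transcription factor subunit that neurons switch on within minutes of activity, rose with FKBP5 among the birds that flew. It held 54.4, 85.3 and 71.1 CPM in race 2, race 3 and race 4, against 12.2 and 9.0 CPM in race 1 and race 5. The sides were far apart, at 70.3 ± 15.5 CPM (SD, n = 3) and 10.6 ± 2.29 CPM (SD, n = 2), and the split gave a log2 fold change of 2.72 ± 0.25 (SE, adjusted p = 0.122). The slope was 1.22 ± 0.11 (SE, adjusted p = 0.0364). In control birds the slope was -0.61 ± 0.75 (SE) and did not pass, and the race slope exceeded it by 1.83 without passing (adjusted p = 1). Control values of 22.0, 31.0, 36.5, 129 and 184 CPM all lay above both FKBP5-low race birds.

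EGR1, another immediate-early transcription factor, showed the same arrangement without passing. It held 60.6, 87.0 and 40.3 CPM in race 2, race 3 and race 4, and 9.46 and 7.40 CPM in race 1 and race 5 (log2 fold change 2.89 ± 0.35, SE, adjusted p = 0.136). Of 34 immediate-early and activity genes tested, 23 stood higher and 11 lower, 0 passed in the split, and 8 were higher without overlap and 2 lower, beside 14% and 15.3% of all genes. The list's median was 0.15, and 0.05 without race 5, with 17 members then on each side of zero. Among further members, whose names were chosen after their values were seen, BTG2 held 29.6, 78.8 and 39.3 CPM against 14.7 and 16.1 CPM, and EGR4 held 21.7, 39.1 and 14 CPM against 9.46 and 9.33 CPM. HOMER1, a scaffold of postsynaptic glutamate receptors, lay the other way, at 16.7, 20.6 and 18.6 CPM against 31.1 and 31.4 CPM. Higher values were thus not shared by the whole list. DESeq2 called 5 members, FOS, EGR1, BTG2 and EGR4 as higher and HOMER1 as lower, beside 2.2% of all genes tested. In control birds 15 of 34 (44.1%) had the sign seen in race birds, beside 63.5% of all genes tested in both.

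PDE2A, which breaks down cyclic AMP and cyclic GMP, rose with FKBP5 as well. It held 119, 153 and 155 CPM in race 2, race 3 and race 4 and 64.3 and 49.9 CPM in race 1 and race 5, without overlap. Its slope was 0.60 ± 0.06 (SE, adjusted p = 0.0364) in race birds and 1.54 ± 0.41 (SE) in control birds, where it did not pass after adjustment. With limma voom the race slope did not pass for PDE2A or LOC102086143 (adjusted p = 0.0712 each) or FOS (adjusted p = 0.112). For PDE2A the adjusted p by edgeR was 0.0851 to 0.328 with 1 race library left out. Control birds ranged from 49.4 to 283 CPM, wider than the race birds as a whole. LOC102086143 had 1.85, 1.51 and 1.09 CPM in FKBP5-high birds against 14 and 17.5 CPM in FKBP5-low birds, with slopes of -1.53 ± 0.13 (SE, adjusted p = 0.0364) in race and -1.86 ± 0.46 in control birds.

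**Figure D2:**
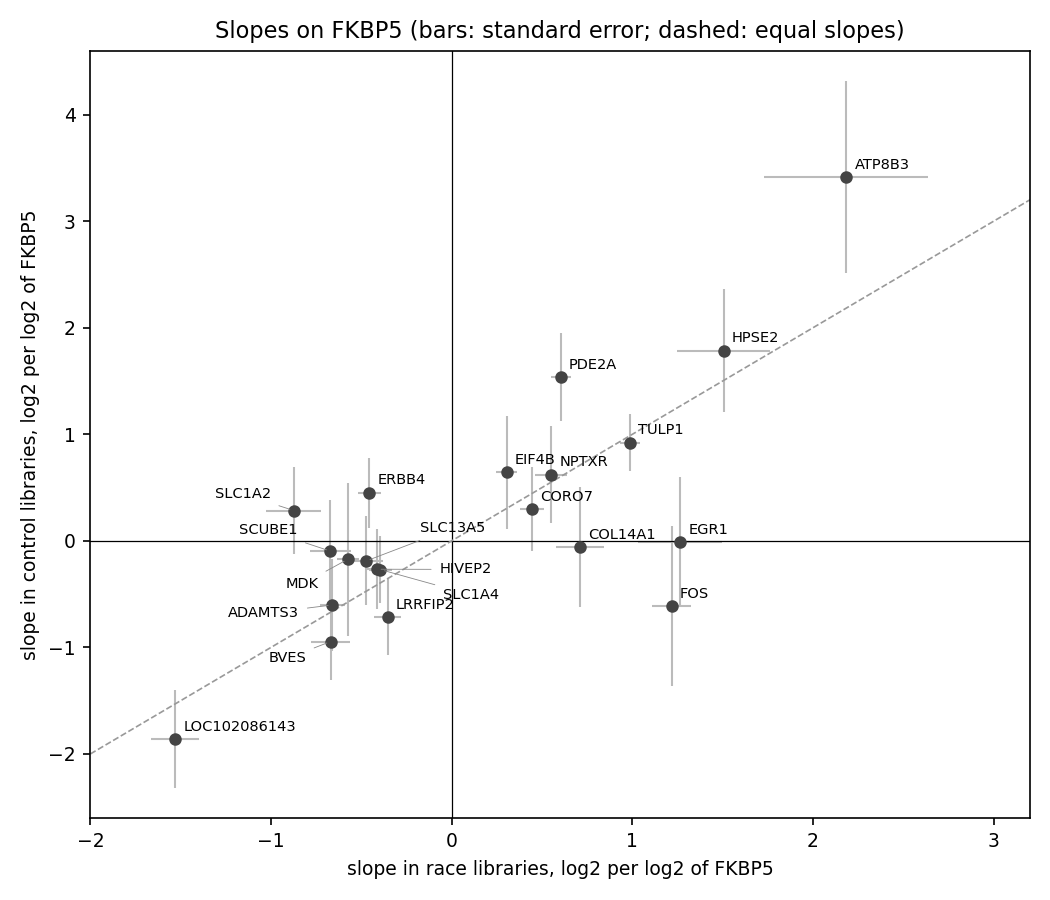
Slopes on FKBP5 for the 20 named genes and LOC102086143, in race libraries (x axis) and control libraries (y axis), both in log2 per log2 of FKBP5, with standard errors as bars and equal slopes as a dashed line. TULP1 lies on the line at 0.99 and 0.92, while FOS has 1.22 in race and -0.61 in control libraries with a wide control error.

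Of the 10 genes per direction with the smallest p in the split, none of which passed there, the higher ones besides FOS, EGR1, PDE2A and TULP1 were COL14A1, CORO7, EIF4B, ATP8B3, NPTXR and HPSE2. Adjusted p by edgeR's quasi-likelihood test ran from 0.122 to 0.215 over these 20 genes, each of them chosen for showing no overlap. DESeq2 called all 20 and LOC102086143, beside 2.2% of all genes tested. The 20 genes were chosen by small p in the same split of the same libraries, so the DESeq2 calls are no separate support. NPTXR, the neuronal pentraxin receptor of excitatory synapses, held 753, 841 and 1074 CPM in race 2, race 3 and race 4 against 325 and 410 CPM in race 1 and race 5. EIF4B, a cofactor of translation initiation, was the tightest, at 168, 165 and 167 CPM against 100 and 103 CPM (log2 fold change 0.72 ± 0.11, SE). CORO7, a coronin of the Golgi, held 68.6, 63.1 and 77.8 CPM against 34.6 and 34.2 CPM. COL14A1, a collagen that binds to fibrils, held 52.9, 48.9 and 39.1 CPM against 17.7 and 12.6 CPM.

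The remaining higher genes were under 1 CPM in FKBP5-low birds. ATP8B3, a lipid flippase, held 3.75, 9.82 and 2.80 CPM against 0.152 and 0.161 CPM. HPSE2, a relative of heparanase that blocks it, held 6.60, 4.86 and 12.6 CPM against 0.455 and 0.858 CPM. Their control slopes of 3.41 ± 0.90 and 1.79 ± 0.57 (SE) had the same sign as their race slopes of 2.18 ± 0.46 and 1.51 ± 0.26. None of these slopes passed after adjustment. In control 1 to control 5 ATP8B3 held 0.539, 0.857, 0.149, 5.98 and 0.0899 CPM, so only control 4 was well above the floor.

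The 10 genes lower in FKBP5-high birds were ERBB4, SLC1A2, MDK, ADAMTS3, SLC1A4, SLC13A5, HIVEP2, BVES, SCUBE1 and LRRFIP2. SLC1A2, a glutamate transporter of astrocytes, held 22.8, 14 and 21.8 CPM in race 2, race 3 and race 4. It held 94.4 and 67.8 CPM in race 1 and race 5 (log2 fold change -2.05 ± 0.25, SE, adjusted p = 0.136). SLC1A4, which carries serine and other neutral amino acids, held 154, 137 and 134 CPM against 277 and 252 CPM. SLC13A5, a citrate transporter, held 74.9, 59.7 and 74.5 CPM against 171 and 134 CPM. That the sides of these genes do not overlap is fixed by how they were chosen.

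ERBB4, a receptor for neuregulins, held 51.2, 55.9 and 49.8 CPM in race 2, race 3 and race 4 against 107 and 111 CPM in race 1 and race 5, the smallest p among the lower genes after LOC102086143 (adjusted p = 0.136). MDK, the secreted growth factor midkine, held 36.1, 31.7 and 26.1 CPM against 74.4 and 75.4 CPM. HIVEP2, a zinc finger transcription factor, held 207, 179 and 193 CPM against 340 and 400 CPM. ADAMTS3, a protease of procollagen, held 35.0, 23.6 and 26.5 CPM against 72.1 and 84.3 CPM. The last 3, BVES, SCUBE1 and LRRFIP2, had log2 fold changes of -1.51, -1.5 and -0.85.

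**Figure D3:**
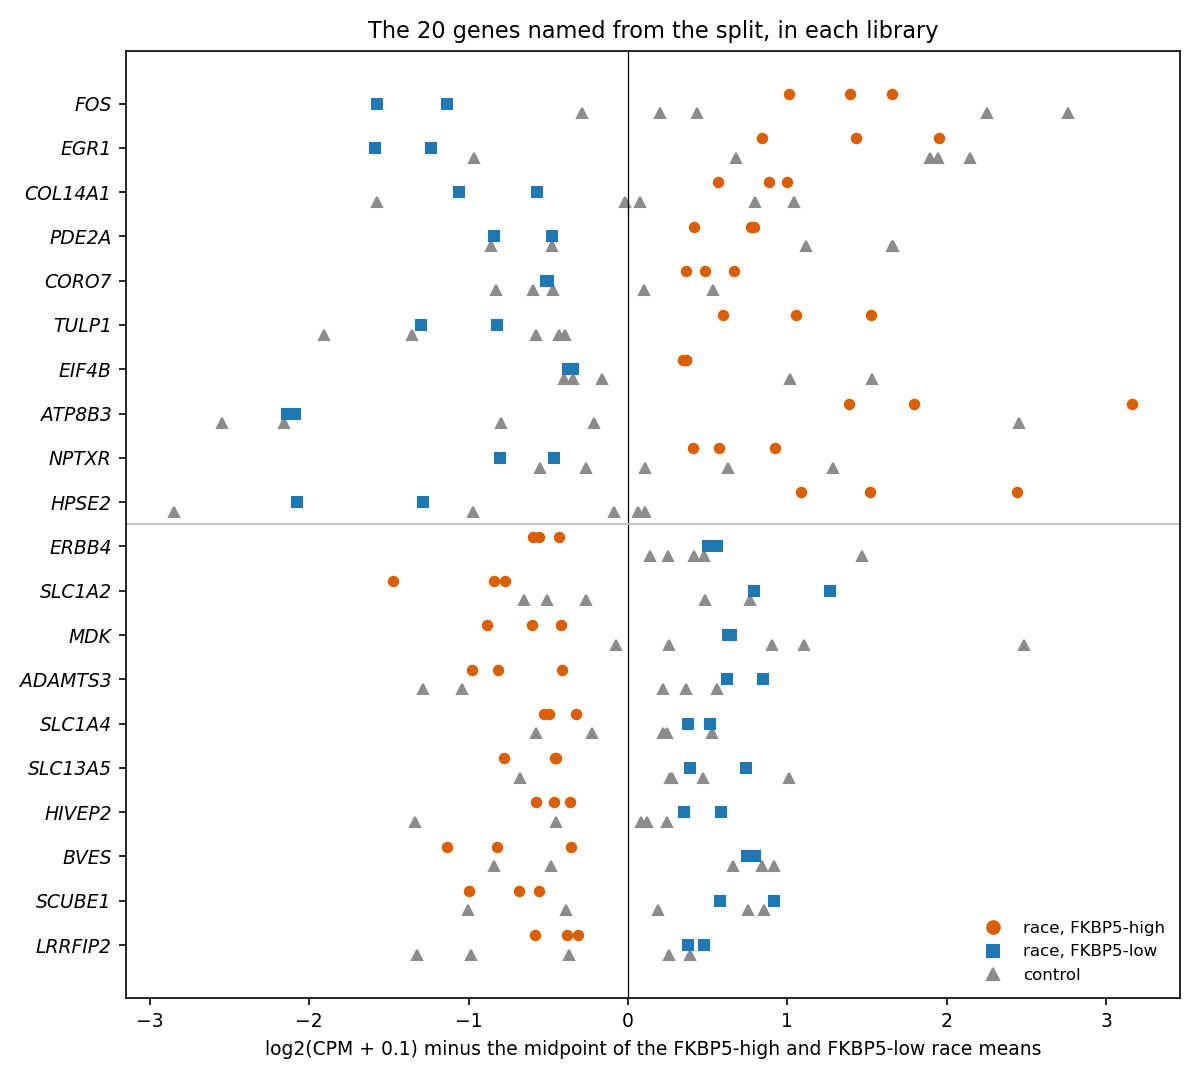
Log2 CPM of the 20 named genes in each library, set to 0 at the midpoint of the means of the sides, with FKBP5-high race birds (orange circles) drawn above FKBP5-low race birds (blue squares) and controls (grey triangles). The race sides do not overlap, which the choice of genes fixes, while control values spread over both, as for FOS with 22.0 to 184 CPM.

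Genes that glucocorticoids induce in mammals mostly stood higher beside FKBP5, though none passed. All 34 members matched to a gene name, of 43 listed besides FKBP5, were tested: 30 were higher, 4 lower and 0 called, with a median log2 fold change of 0.32 against 0.00 over all genes tested. At an unadjusted p under 0.05, 5 were higher and 0 lower, beside 4.79% and 5.28% of all genes. Without overlap, 7 were higher and 0 lower, beside 14% and 15.3% of all genes tested. The median stayed between 0.26 and 0.49 with any 1 race library left out, and 27 to 30 members were then higher. DESeq2 called 3 members, TXNIP, DUSP1 and GLUL, beside 2.2% of all genes tested. Such calls were not particular to this list. In the fuel and lipid list DESeq2 called HADHB, SLC16A1 and PDK2 as higher and FABP7 as lower. In the astrocyte list it called CLU and ALDOC as higher and SLC1A2 and AQP4 as lower. Of 34 fuel and lipid genes, 9 were higher and 5 lower without overlap.

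The members differed in which birds carried the difference. TXNIP, the thioredoxin-interacting protein, was higher in all 3 FKBP5-high birds, at 66.4, 60.8 and 84.0 CPM in race 2, race 3 and race 4 against 45.2 and 40.9 CPM in race 1 and race 5. DUSP1, a phosphatase of MAP kinases, held 21.1, 25.1 and 39.0 CPM against 14.2 and 12.1 CPM. TSC22D3, which encodes the leucine zipper protein GILZ, held 168, 171 and 202 CPM against 119 and 149 CPM. In these 3 genes race 2 stood with race 3 and race 4.

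Other members had their higher values in race 3 and race 4, with race 2 near or within the FKBP5-low values. GLUL, the glutamine synthetase of astrocytes, held 1006 CPM in race 2, 2745 in race 3 and 2488 in race 4, against 980 and 731 CPM in race 1 and race 5. SESN1, a sestrin that restrains mTOR signalling, held 48.6, 234 and 181 CPM against 56.4 and 48.6 CPM. ZBTB16, the zinc finger repressor PLZF, held 36.4, 174 and 323 CPM against 41.5 and 85.4 CPM. PDK4, a kinase that shuts off pyruvate dehydrogenase, held 2.23, 5.11 and 7.49 CPM against 1.72 and 2.36 CPM. Summarised per bird as the mean log2 CPM minus the control mean, the list stood at -0.28, 0.23 and 0.26 in race 2, race 3 and race 4 and at -0.24 and -0.35 in race 1 and race 5. By that measure race 2 is not set apart from the FKBP5-low birds, in spite of its FKBP5 level.

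Several classical targets overlapped between the sides. KLF9 held 21.8, 24.2 and 26.5 CPM against 22.1 and 23.7 CPM, and KLF15 held 38.3, 35.3 and 34 CPM against 33.3 and 37.6 CPM. SGK1, a kinase of ion transport, held 38.1, 52.0 and 76.0 CPM against 47.2 and 41.6 CPM, with overlap. The lower members were PLIN2, TIPARP, FAM107A and CDKN1A, of which CDKN1A had the largest difference, -0.31 ± 0.52 (SE). In control birds the members' median slope on FKBP5 was 0.35, and 23 of 34 (67.6%) had the sign seen in race birds, beside 63.5% of all genes tested in both. The 23 were all among the 30 higher members, and 0 of the 4 lower members had the same sign.

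The steroid receptors and the genes of steroid supply gave no common direction. Of 13 tested, 7 were higher, 6 lower and 0 called, with a median of 0.00, and 7 more were under the count filter. NR3C1, the glucocorticoid receptor, held 139, 153 and 118 CPM in race 2, race 3 and race 4 against 148 and 173 CPM in race 1 and race 5, overlapping. NR3C2, the mineralocorticoid receptor, held 27.9, 24.3 and 27.6 CPM against 26.1 and 22.7 CPM.

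**Figure D4:**
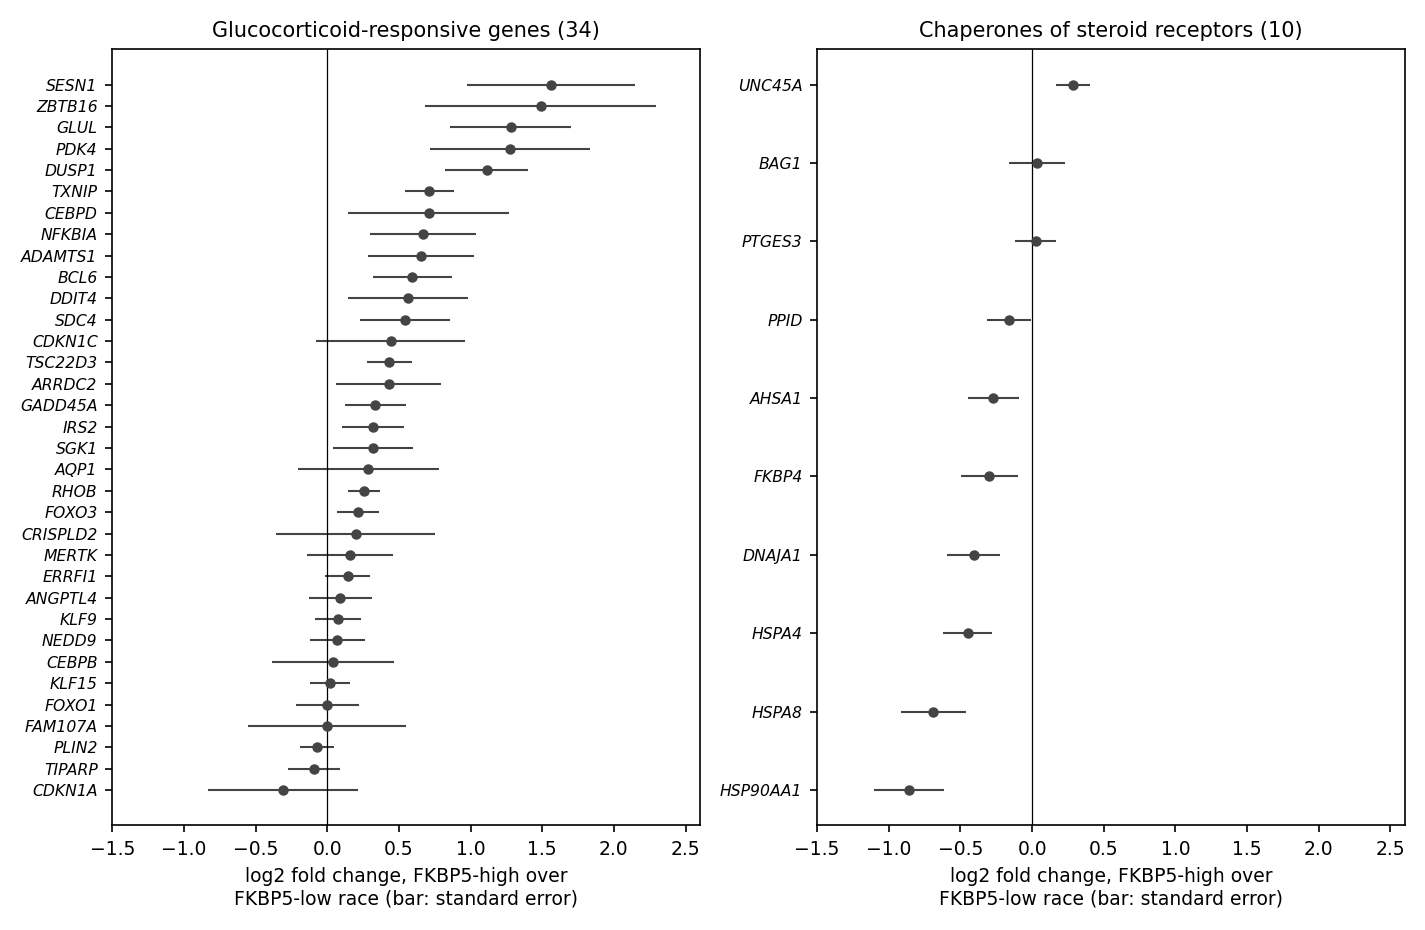
Log2 fold changes of FKBP5-high over FKBP5-low race birds with standard errors, for 34 glucocorticoid-responsive genes (left) and 10 chaperones of steroid receptors (right). Of the responsive genes 30 lie right of 0, and of the chaperones 7 lie left of it, with HSP90AA1 farthest at -0.86.

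Chaperones that load steroid receptors leaned the other way. Of 10 tested, 3 were higher, 7 lower and 0 called by edgeR's quasi-likelihood test, with a median of -0.28. DESeq2 called HSP90AA1 of this list, as lower, beside 2.2% of all genes tested. Without overlap 4 were lower and 1 higher, beside 15.3% and 14% of all genes tested. Leaving out race 2 gave a median of -0.14, and leaving out race 4 gave -0.42. HSP90AA1, the inducible Hsp90 that FKBP5 binds, held 1707, 3000 and 2520 CPM in race 2, race 3 and race 4 against 4441 and 4285 CPM in race 1 and race 5. HSPA8, the constitutive Hsp70, held 1046, 1489 and 1697 CPM against 2053 and 2497 CPM. FKBP4, the immunophilin that competes with FKBP5 for the receptor, overlapped at 216, 285 and 331 CPM against 311 and 372 CPM. UNC45A, a co-chaperone of Hsp90, was higher at 71.5, 76.5 and 80.9 CPM against 62.3 and 62.7 CPM.

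The wider chaperone lists had the same lean, and the lowest levels were those of race 2. As mean log2 CPM minus the control mean, heat shock genes stood at -0.68, -0.42 and -0.29 in race 2, race 3 and race 4. Race 1 and race 5 stood at -0.28 and -0.32, so by that measure race 4 lay between them. Of 28 heat shock genes 20 were lower and 8 higher, with a median of -0.24. Without overlap 13 were lower and 3 higher, beside 15.3% and 14% of all genes. CHORDC1, DNAJB1 and HSPA5 had the smallest p, with DNAJB1 at 8.59, 10.1 and 5.78 CPM against 15 and 19.9 CPM. Of 23 genes of the endoplasmic reticulum stress response 17 were lower and 6 higher, with a median of -0.15. Without overlap 10 were lower and 0 higher, beside the same shares of all genes. HERPUD1, an endoplasmic reticulum protein of the unfolded protein response, held 9.73, 15.5 and 10.4 CPM against 24.7 and 21.5 CPM, and HSP90B1, the Hsp90 of that compartment, held 171, 328 and 298 CPM against 483 and 499 CPM. In both lists 0 genes passed. DESeq2 called 3 of the 28 heat shock genes, CHORDC1, DNAJB1 and HSPA5, beside 2.2% of all genes. Of the endoplasmic reticulum list it called HERPUD1 and HSP90B1.

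Marker genes of vessels, meninges and glia were compared in the same libraries, since a dissected cerebellum can hold varying amounts of each. Of 23 endothelial genes 22 were higher and 1 lower, with a median of 0.55 and 0 called. Their mean log2 level relative to controls was 0.29, 0.40 and 0.20 in race 2, race 3 and race 4, against 0.27 in race 1 and -0.74 in race 5. The difference rested on race 5: leaving out race 5 gave a median of 0.12, and leaving out race 1 gave 1.07. FLT4, the receptor of lymphatic endothelium, held 19.9, 26.3 and 18.5 CPM against 15.6 and 11.7 CPM. Of 16 pericyte and smooth muscle genes 13 were higher, with a median of 0.36 that ran from 0.12 without race 3 to 0.77 without race 1. Without overlap 5 were higher and 0 lower, beside 14% and 15.3% of all genes tested. ABCC9 and KCNJ8, the subunits of the potassium channel of pericytes, were among the 5. ABCC9 held 14.4, 12.2 and 19.7 CPM against 8.34 and 6.38 CPM. KCNJ8 held 6.27, 8.27 and 19.4 CPM against 4.25 and 4.88 CPM, with its highest value in race 4. None of the 16 passed.

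Meningeal genes depended on race 1, and race 4 had the lowest level of them. Of 15 tested 14 were lower and 1 higher, with a median of -0.61, and without race 1 the median was 0.29 with 10 members higher. Their summed level was 117 to 235 CPM in FKBP5-high birds and 184 and 343 CPM in FKBP5-low birds. Their mean log2 level relative to controls was 0.17, 0.41 and -1.16 in race 2, race 3 and race 4. It was 1.01 and -0.22 in race 1 and race 5. Of 20 interferon-stimulated genes 17 were higher, with a median of 0.34 that was 0.05 without race 5. IFIH1, a sensor of viral RNA, held 8.02, 8.46 and 9.53 CPM against 5.06 and 3.32 CPM. The part of these tissues in other differences was not tested.

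Astrocyte and Bergmann glia genes split in both directions, with 9 higher and 9 lower among 18, a median of -0.04 and 0 called. Without overlap 6 were lower and 2 higher, beside 15.3% and 14% of all genes. SLC1A2 was lower, as given above, and so was AQP4, the water channel of astrocyte endfeet, at 110, 91.2 and 83.9 CPM in race 2, race 3 and race 4 against 164 and 161 CPM in race 1 and race 5. CLU, the secreted chaperone clusterin, was higher at 1375, 1367 and 1314 CPM against 879 and 853 CPM. Microglial genes were lower in 9 of 16, and LY86, a partner of a toll-like receptor homologue, held 4.42, 4.03 and 3.56 CPM against 10.9 and 7.61 CPM. Granule cell genes (8 of 19 higher, median -0.04), Purkinje cell genes (10 of 22 higher, median -0.09) and oligodendrocyte genes (8 of 21 higher, median -0.16) had members in both directions. The oligodendrocyte median was -0.37 without race 4 and 0.074 without race 5, the microglial one was -0.23 without race 5 and 0.13 without race 1, and the astrocyte one was -0.16 without race 2. Among granule cell genes KCND2, a potassium channel subunit, held 139, 104 and 120 CPM against 191 and 201 CPM.

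Synaptic genes also went both ways. Of 28 synaptic vesicle genes 19 were higher, with a median of 0.10, and 0 passed. SYT2, a calcium sensor of fast release, held 164, 170 and 202 CPM against 115 and 115 CPM, and DNM1, the dynamin of vesicle recovery, held 1313, 1150 and 1511 CPM against 799 and 844 CPM. Of 27 receptors for glutamate and GABA 18 were lower, with a median of -0.17. Without overlap 11 were lower and 4 higher, beside 15.3% and 14% of all genes. Of the 1452 genes of longest span, 389 were lower and 123 higher without overlap. The 3 receptors of smallest p were nevertheless higher: GRIK4, GRIN1 and GRIN2B. GRIN1, the obligatory NMDA receptor subunit, held 688, 588 and 770 CPM against 476 and 451 CPM. With offsets for gene span the list's median was -0.05.

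Length of the gene moved with the fold change. With the genes divided into 10 equal classes by the span they cover in the annotation, introns included, the median log2 fold change was 0.10 in the class of shortest span and -0.12 in that of longest span. The genes named from the split differed in span as well. The higher ones ran from 2761 bases (FOS) to 127143 (COL14A1), and the lower ones from 5276 (MDK) to 626958 (ERBB4). A fit with offsets for span, chosen after seeing the data, also called 0 genes by edgeR's quasi-likelihood test.

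Genes of the respiratory chain, of fuel choice and lipid use and of ribosomes had medians near zero, and some turned with 1 library. Glycolysis genes had a larger median of 0.21, with 7 of 12 higher, 5 lower and 0 called. That median was 0.060 without race 2 and 0.33 without race 3. Without overlap 3 glycolysis genes were higher and 1 lower, beside 14% and 15.3% of all genes. Of 52 nuclear genes of the respiratory chain 36 were higher with a median of 0.05, and of 34 genes of fuel choice and lipid use 18 were higher with a median of 0.04. NDUFV1, a core subunit of complex I, held 182, 172 and 202 CPM against 126 and 132 CPM, and FABP7, a fatty acid binding protein of glia, held 96.7, 116 and 94.4 CPM against 203 and 162 CPM. Of 69 cytosolic ribosomal protein genes 49 were higher with a median of 0.08, and of 67 mitochondrial ones 45 were higher with the same median. The respiratory chain median was -0.035 without race 4 and 0.18 without race 2, with 21 to 47 members higher over the left-out libraries. The fuel median was -0.018 without race 4 and 0.071 without race 2. The cytosolic ribosomal median was -0.00055 without race 3 and 0.16 without race 2, and the mitochondrial one was 0.012 without race 4 and 0.14 without race 2. In the split 0 members of the 36 lists passed by edgeR's quasi-likelihood test; FOS passed in the race slope.

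**Figure D5:**
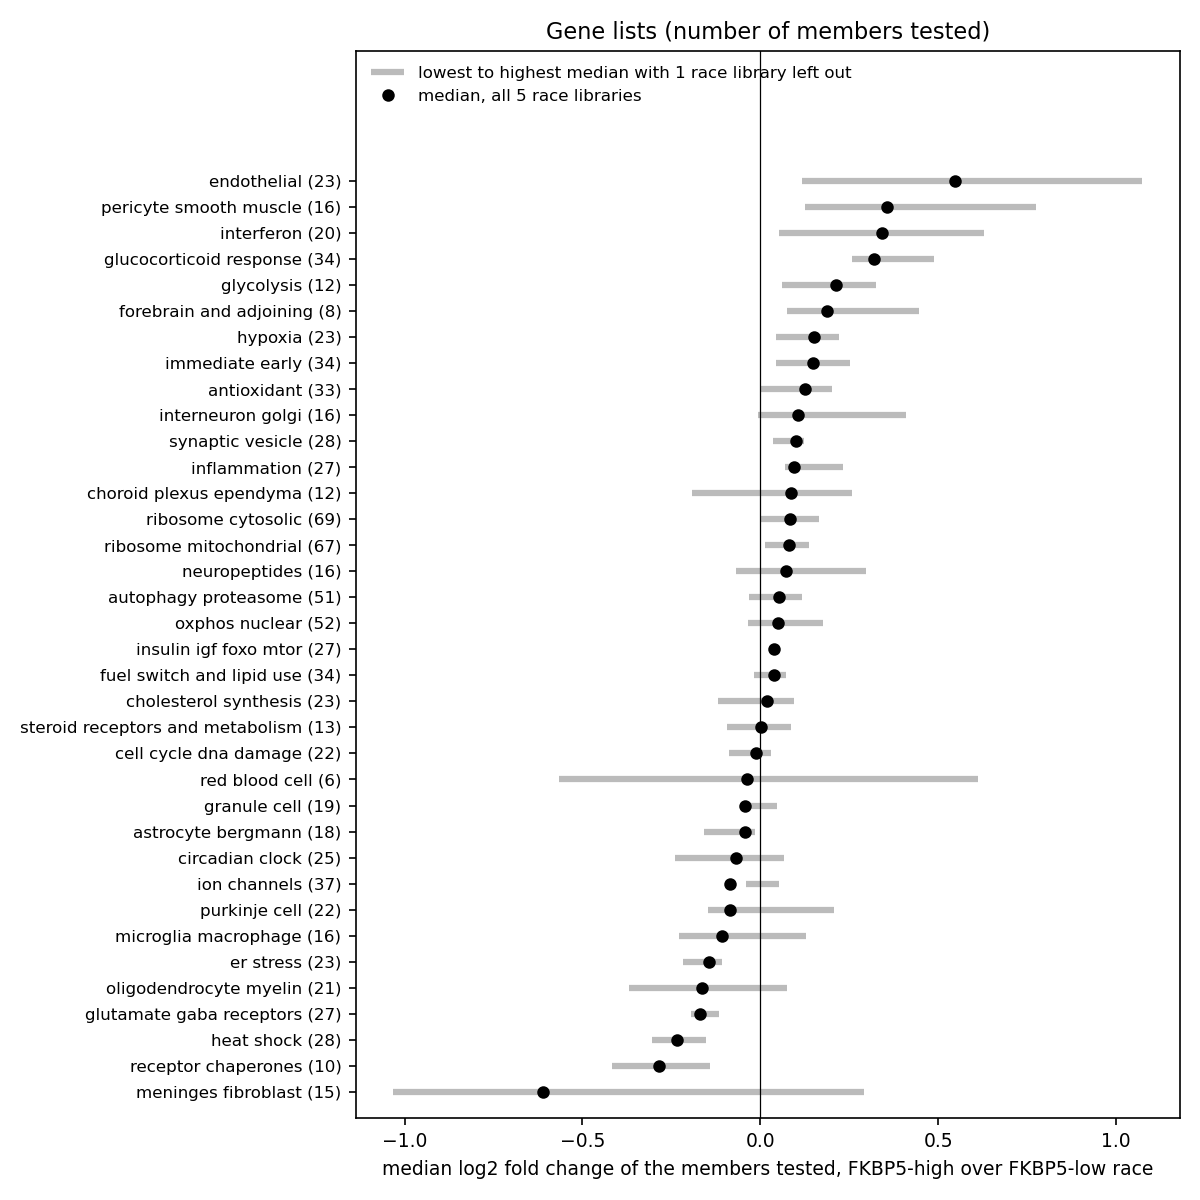
Median log2 fold change of FKBP5-high over FKBP5-low race birds for 36 gene lists (black points, number of members tested in brackets), with the range of medians when 1 race library is left out (grey bars). The glucocorticoid list stays between 0.26 and 0.49, while the endothelial list runs from 0.12 to 1.07 and the meningeal list from -1.03 to 0.29.

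The control birds offered libraries in which the same relations could be read again, though they were not alike in W-linked expression. Control 1 and control 2 had 29 W genes at 1 CPM, with FKBP5 at 87.0 and 119 CPM. Control 3, control 4 and control 5 had 92 to 94, with FKBP5 at 57.4, 117 and 36.8 CPM. The control slopes given above hold no term for this. Across the 5 control libraries FKBP5 ran from 36.8 to 119 CPM. Of 14566 genes tested 0 (0%) had a slope that passed, with 246 (1.69%) at an unadjusted p under 0.05 by edgeR's quasi-likelihood test. Of the genes with an unadjusted p under 0.05 in the split, 1118 of 1427 (78.3%) had the same sign in the control slope, against 63.5% of all 14202 genes tested in both. Of the 20 named genes 15 did; FOS, EGR1, COL14A1, ERBB4 and SLC1A2 did not. With a term for W-linked expression in the control fit these shares were 46.0% and 46.2%, so the excess of shared signs was not seen in that fit. No race slope passed the test of its difference from the control slope, with 0 of 15062 (0%) passing, a lowest adjusted p of 0.533 and 414 at an unadjusted p under 0.05. Nothing here is therefore shown to be particular to the birds that flew.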

How the data were processed

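Cerebellar RNA of 10 racing pigeons, 5 race and 5 control, was sequenced, 1 library per bird. The authors deposited whole-number read counts per gene, 1 table per bird. Per the submitters' processing notes, STAR 2.7.10a and HTSeq 0.13.5 were among the tools, beside fastp 0.23.2 and, for quality reports, MultiQC 1.14 and FastQC 0.11.5. Genome build, annotation and strand setting: not given in the sources used here. Rows that name no gene held 18.1% to 23.4% of counts and were left out. Gene counts summed to 17953704 to 23344086 per library. Of 22547 gene names 22268 matched RefSeq bColLiv1.pat.W.v2.

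Counts were filtered (edgeR filterByExpr, minimum count 10), scaled by TMM over all 10 tables and tested with edgeR 4.0.16 in R 4.3.3, using the quasi-likelihood test with Benjamini-Hochberg adjustment and a threshold of 0.05. Fits covered the split of race birds, slopes on log2 FKBP5 (prior count 2) within race and within control birds, and their difference. Standard errors were derived from the fold change and its F statistic. DESeq2 1.42.0, limma 3.58.1 voom, other scalings and filters, and leaving out each library were alternatives. DESeq2 gave no adjusted p for 565 genes.

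Sides were formed from measured FKBP5, so p-values describe variation with FKBP5 over 5 libraries and not a treatment. The members and the 36 lists (1174 symbols) were chosen with earlier results of these data known. Named genes are, per direction, the 10 of smallest p with a symbol, no overlap between sides and a mean log2 CPM of 1 or more, all members of the glucocorticoid, receptor and chaperone lists, and the 3 of smallest p in other lists; genes next to FKBP5, BTG2 and EGR4 were added after their values were seen. Simulated data held 200 changed genes among 14521. The split recovered 37% of log2 differences of 1 between the sides and 90% of differences of 2, with 11 false among 138 calls. The race slope recovered 92% of slopes of 1 and 100% of slopes of 2, with 13 false among 205 calls. A slope was set for each doubling of FKBP5 and so made a larger difference between the sides. The shares of the split and the slope are therefore not at equal effect.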

Additional observations from a re-analysis of the deposited data

Results flagged for a closer look

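In 4 of 70 groups of 5 libraries tested, 1 library stood apart from the others of its group by Dixon's criterion, where chance gives about 1 in 20. The endothelial list of race 5, an FKBP5-low bird, had a mean log2 level of -0.74 relative to controls, while the other race birds ranged from 0.20 to 0.40. ERBB4 held 209 CPM in control 4, while the other control birds held 83.0 to 105 CPM. The remaining 2 concern control 1 as a library: its TMM factor was 0.795, with 0.969 to 1.03 in the other controls, and 3.90% of its counts came from reads at more than 1 place, with 2.37% to 2.75% in the others.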

How the results depend on the processing

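The named genes were chosen for no overlap between sides, which fixes their sign in most alternatives. The split called 320 genes with DESeq2 and 1 (FOS) with no count filter, and 0 under the other alternatives, leaving out each race library included. The race slope called 8 genes with no filter, 1 with limma voom, and 0 to 4 with 1 race library left out. Among list medians, 468 of 504 alternative values moved by less than the SD of the list's mean log2 level within the sides. That SD rests on 3 and 2 birds. It was 0.85 for meninges, 0.59 for red blood cells and 0.42 for endothelium, but 0.0061 for glutamate and GABA receptors. Large moves could thus stay under it in some lists and small moves exceed it in others. The glutamate and GABA receptor median (-0.17) was -0.16 with RLE scaling, TMM over race libraries or DESeq2, -0.18 with library size only, and -0.045 with gene span offsets, chosen after seeing the data, which also put the ion channel median at -0.0087 against -0.08. With no filter the steroid receptor median was 0.23 (0.00 with it) and the forebrain median 0.91 (0.19 with it).

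With 1 race library left out, medians ran from 0.054 to 0.63 for interferon genes, 0.069 to 0.23 for inflammation, 0.12 to 1.07 for endothelium, 0.12 to 0.77 for pericytes, -1.03 to 0.29 for meninges, -0.57 to 0.61 for red blood cells, -0.15 to 0.21 for Purkinje cells, -0.0076 to 0.41 for interneurons, -0.041 to 0.053 for ion channels, -0.19 to -0.12 for glutamate and GABA receptors, -0.069 to 0.30 for neuropeptides, -0.24 to 0.065 for the circadian clock, -0.087 to 0.031 for the cell cycle, -0.19 to 0.26 for choroid plexus, -0.055 to 0.048 for granule cells and 0.074 to 0.45 for forebrain.

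No paired analysis was possible because the labels pair no race bird with a control bird, and the sides hold different birds. By the sample titles the split would be 1 against 4 libraries, with 0 of 13142 genes called.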
